A study of Mus musculus with 12 samples.

Results

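The 10 genes described here are Omp, Stoml3, S100a5, Cyp2g1, Cnga2, Cnga4, Gng13, Adcy3, Gnal and Ano2, transcripts of the olfactory sensory pathway and of the nasal mucosa that can be met in olfactory bulb tissue. They are a fixed list of symbols, drawn up with earlier results of these data known, and all 10 were found, each with a single probe set, among the 19938 genes that the arrays measure under 1 symbol. The arrays hold total RNA of olfactory bulb and hippocampus from adult mice labelled C57BL/6, either wild type or knockout for GRF2 (RasGRF2, which activates Ras-family GTPases in neurons). There are 4 groups of 3 arrays: wild-type olfactory bulb, knockout olfactory bulb, wild-type hippocampus and knockout hippocampus, all from untreated mice kept in conventional housing with exposure to common pathogens. The titles number the wild-type animals 1 to 3 and the knockout animals 4 to 6, and these numbers name the replicates below. The labels also give each animal a code, and the code and the number pair the tissues of wild-type animals 1 and 2 differently. The sources used here do not say whether the animals were littermates, which part of the gene was removed or how the tissue was dissected.

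The cell bodies of olfactory sensory neurons lie in the nasal epithelium, and their axons run through the skull base into the glomeruli of the olfactory bulb, where some sensory neuron mRNAs are carried. In the cilia of these neurons an odorant receptor activates the G protein Golf, whose alpha subunit is Gnal and which is found with the gamma subunit Gng13. Golf activates the adenylyl cyclase Adcy3, cyclic AMP opens a channel built with Cnga2 and Cnga4, and the calcium that enters opens the chloride channel Ano2. Omp is the olfactory marker protein of mature sensory neurons, S100a5 is a calcium-binding protein of the same cells, and Stoml3 is a stomatin-like membrane protein of sensory neurons. Cyp2g1 is a cytochrome P450 of the olfactory mucosa, made by supporting cells and glands and not by neurons. In bulk tissue, fewer cells or axons of a kind and less RNA in each cannot be told apart.

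Each value is a log2 intensity from RMA (robust multi-array averaging), so a difference of 1 is a doubling, and the number of arrays limits the precision. The median of all probe sets was 6.93 to 6.96 in the bulb arrays and 6.82 to 6.89 in the hippocampal arrays. The tissues matched their labels by markers: 9 of 9 bulb neuron genes (such as Th, Cdhr1 and Reln) were higher in bulb in both genotypes, and 9 of 9 hippocampal neuron genes (such as Zbtb20 and Wfs1) were lower. Of the hippocampal list, Iyd also differed between the genotypes in hippocampus, by -0.99 (SE 0.116, limma adjusted p = 0.000797). Rasgrf2 itself ran from 9.14 to 9.32 in wild-type and from 8.49 to 8.76 in knockout hippocampus, a log2 difference of -0.58 (SE 0.077, limma adjusted p = 0.00197). In bulb it ran from 9.47 to 9.52 in wild type and from 9.33 to 9.43 in knockout, a log2 difference of -0.14 (SE 0.077, limma adjusted p = 0.532).

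Omp, Stoml3 and S100a5 were far higher in olfactory bulb than in hippocampus in both genotypes, and none of the 10 genes passed the test between knockout and wild type. Cyp2g1 stood high in 1 array only, wild-type bulb replicate 1. Stoml3 was also highest in that array but was raised in wild-type replicate 2 as well, whereas Omp and S100a5 were highest in a knockout array.

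**Figure D1:**
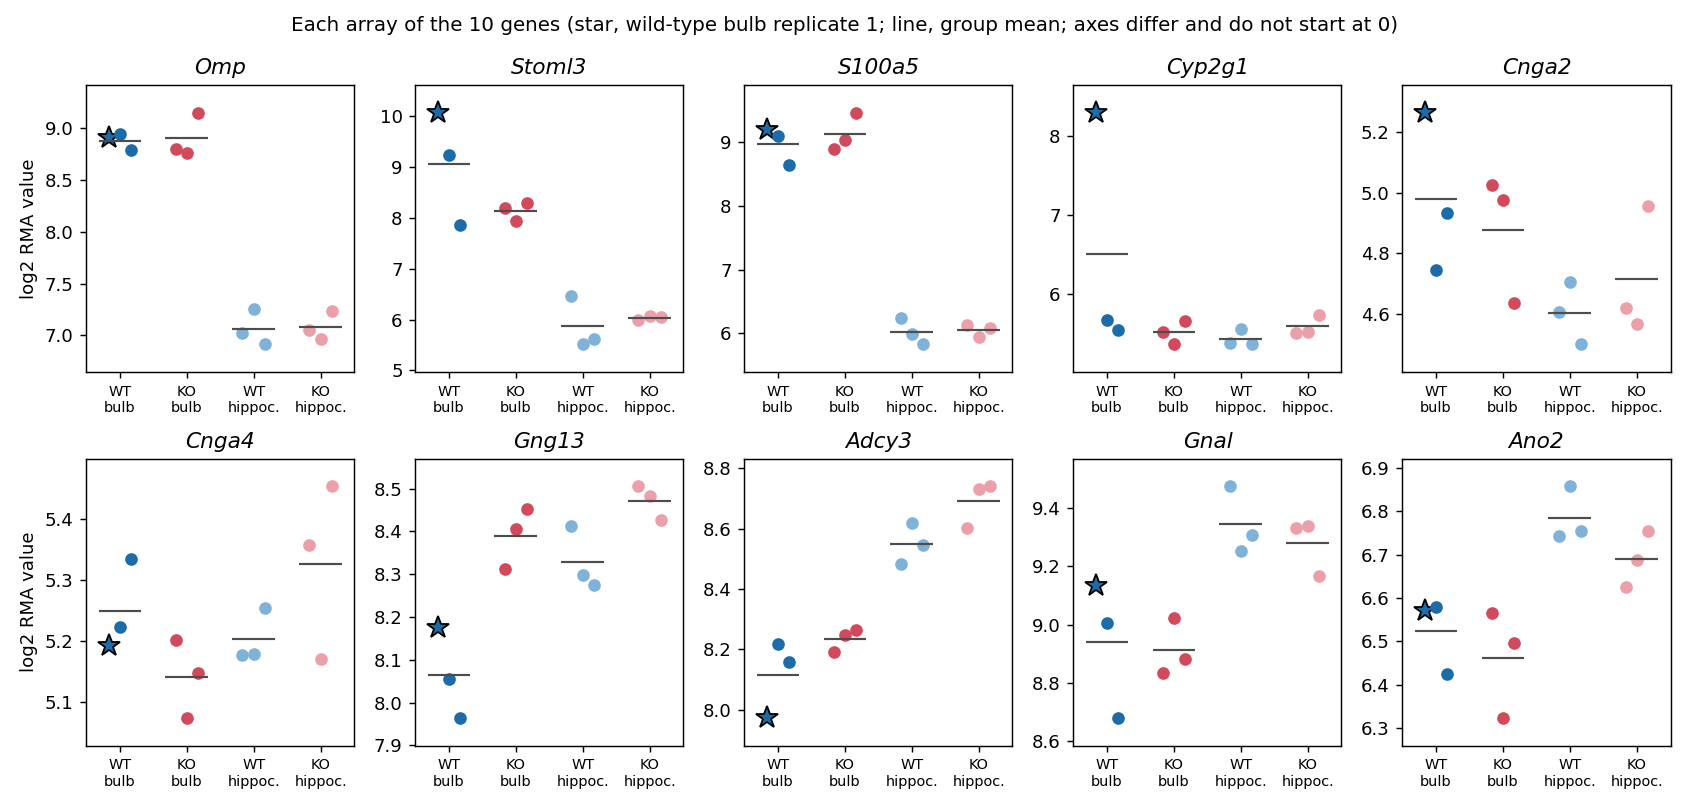
Each panel plots the log2 RMA value of 1 gene in the 12 arrays, in 4 groups of 3 (x axis: WT, wild type; KO, knockout; bulb, olfactory bulb; hippoc., hippocampus); points are arrays in replicate order, lines are group means and the star is wild-type bulb replicate 1. Cyp2g1 reaches 8.29 in that array and lies between 5.37 and 5.74 in the other arrays, while Omp lies between 8.75 and 9.15 in all 6 bulb arrays; the axes differ between panels.

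Among the markers of sensory neurons, Omp read 8.90, 8.94 and 8.78 in wild-type bulb replicates 1 to 3 and 8.80, 8.75 and 9.15 in knockout bulb replicates 4 to 6. In hippocampus it read 7.03, 7.26 and 6.92 in wild type and 7.05, 6.97 and 7.23 in knockout. The bulb arrays all lay above the hippocampal ones, with the highest value in knockout replicate 6 and no separation of the genotypes. The bulb exceeded the hippocampus by 1.81 in wild type (SE 0.112, 3.51-fold, limma adjusted p = 4.47e-09) and by 1.82 in knockout (SE 0.112, 3.52-fold, limma adjusted p = 4.35e-09). The difference between knockout and wild type was 0.02 in each tissue (SE 0.112), smaller than the spread between replicates. Its 95% interval in bulb ran from -0.22 to 0.26.

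S100a5 read 9.19, 9.09 and 8.63 in wild-type bulb and 8.89, 9.03 and 9.46 in knockout bulb. In hippocampus the values were 6.24, 5.99 and 5.83 in wild type and 6.14, 5.94 and 6.09 in knockout. Every bulb array was above every hippocampal array, and the genotypes overlapped in both tissues. The tissue difference was 2.95 in wild type (SE 0.155, 7.74-fold, limma adjusted p = 7.48e-10) and 3.08 in knockout (SE 0.155, 8.43-fold, limma adjusted p = 4.78e-10). Knockout bulb differed from wild-type bulb by 0.16 (SE 0.155, limma adjusted p = 0.727), with a 95% interval from -0.17 to 0.49.

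Stoml3 read 10.07, 9.24 and 7.87 in wild-type bulb replicates 1 to 3, a range of 2.20. The knockout bulb arrays were close together at 8.19, 7.94 and 8.30. Wild-type replicates 1 and 2 were above all knockout arrays and replicate 3 was below them all, so the genotypes overlapped. In hippocampus the gene read 6.47, 5.52 and 5.62 in wild type and 6.00, 6.07 and 6.05 in knockout, and replicate 1 was again the highest. Bulb exceeded hippocampus by 3.19 in wild type (SE 0.379, 9.15-fold, limma adjusted p = 6.22e-06) and by 2.10 in knockout (SE 0.379, 4.29-fold, limma adjusted p = 0.000361). The group means, 9.06 ± 1.11 in wild-type and 8.14 ± 0.19 in knockout bulb (SD, n = 3), differed by -0.92 (SE 0.379, 95% interval -1.73 to -0.11, limma adjusted p = 0.391). This value turned on single arrays: it was -0.42 without wild-type replicate 1 (limma adjusted p = 0.672). Without wild-type replicate 3 it was -1.52 and passed the threshold of 0.05 (limma adjusted p = 0.0148).

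Promoter windows of Stoml3, S100a5 and Cnga2 are shown because these were the genes higher in wild-type bulb than in hippocampus for which RefSeq's table (build GRCm38.p6) gave a window. Each runs from 250 bases before to 50 bases after the annotated start, on the plus strand. They lie at chr3:53488457-53488756 (Stoml3), chr3:90608272-90608571 (S100a5) and chrX:71991599-71991898 (Cnga2). Capitals mark matches, on either strand, to the core of the early B-cell factor motif (CCCNNGGG, or TCCCNNGGG with a leading T, which contains it) or to the homeodomain core TAATTA.
Stoml3: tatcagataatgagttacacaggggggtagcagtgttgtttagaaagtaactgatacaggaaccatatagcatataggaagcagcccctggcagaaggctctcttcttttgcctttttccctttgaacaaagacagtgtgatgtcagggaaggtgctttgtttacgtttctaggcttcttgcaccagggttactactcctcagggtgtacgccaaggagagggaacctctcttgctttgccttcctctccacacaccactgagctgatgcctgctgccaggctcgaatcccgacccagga
S100a5: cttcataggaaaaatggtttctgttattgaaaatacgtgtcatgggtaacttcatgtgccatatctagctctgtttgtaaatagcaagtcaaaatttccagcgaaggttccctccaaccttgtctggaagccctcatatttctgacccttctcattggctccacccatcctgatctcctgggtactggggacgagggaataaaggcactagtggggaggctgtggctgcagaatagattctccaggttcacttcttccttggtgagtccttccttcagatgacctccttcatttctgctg
Cnga2: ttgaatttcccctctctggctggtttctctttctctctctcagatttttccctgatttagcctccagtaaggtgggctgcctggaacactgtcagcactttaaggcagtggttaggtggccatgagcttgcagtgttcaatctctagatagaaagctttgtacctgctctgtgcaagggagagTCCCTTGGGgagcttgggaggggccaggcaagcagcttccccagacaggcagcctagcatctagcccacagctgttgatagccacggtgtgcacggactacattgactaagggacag
The Cnga2 window held 1 match, TCCCTTGGG, whose first base lies at -67 relative to the start, and the windows of Stoml3 and S100a5 held no match to the 3 patterns. The search of the members left out windows on a single chromosome, which the shares over all windows keep. Over the 7 genes whose windows were searched (all but Omp, Cyp2g1 and Gnal), CCCNNGGG was found in 4 (Ano2, Cnga4, Gng13 and Cnga2). The form with the leading T was found in 3 (Ano2, Gng13 and Cnga2). TAATTA was found in 0 of the 7. Over all 32851 windows of the table, CCCNNGGG was in 13.67%, TCCCNNGGG in 6.56% and TAATTA in 5.29%. Per gene, over 27025 genes, the shares were 15.39%, 7.48% and 6.12%. Ano2, Gng13 and Adcy3 have more than 1 window and so more sequence searched, and Adcy3 had no match. A match describes these letters and not binding.

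Cyp2g1, the mucosal P450, read 8.29 in wild-type bulb replicate 1 and 5.68 and 5.55 in replicates 2 and 3. The knockout bulb arrays read 5.53, 5.37 and 5.67, and the hippocampal arrays ran from 5.38 to 5.74. Wild-type bulb replicate 1 therefore stood 2.61 above the next bulb array and 2.73 above the mean of the other 5, while those 5 covered nearly the same values as the hippocampal arrays. No fold is given, since RMA compresses differences at low values. The group means were 6.51 ± 1.54 in wild-type and 5.52 ± 0.15 in knockout bulb (SD, n = 3). Their difference of -0.98 (SE 0.475, limma adjusted p = 0.459) became -0.093 without that array (SE 0.104, limma adjusted p = 0.788). The tissue difference in wild type was 1.06 (SE 0.475, limma adjusted p = 0.0886) and 0.17 without it (limma adjusted p = 0.212). With the animal as a block, the wild-type tissue difference passed the threshold by code (limma adjusted p = 0.0454) and did not by number (limma adjusted p = 0.0644). Over 19 alternatives this difference ran from 0.17 to 1.54. It passed under 3 of them, the block by code included (lowest limma adjusted p = 0.0172). In knockout, bulb and hippocampus differed by -0.07 (SE 0.475, limma adjusted p = 0.925).

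The channel subunit Cnga2 read 5.26, 4.74 and 4.93 in wild-type bulb and 5.02, 4.97 and 4.64 in knockout bulb. In hippocampus it read 4.61, 4.70 and 4.50 in wild type and 4.62, 4.57 and 4.96 in knockout. Wild-type bulb was above wild-type hippocampus in every array, with replicate 1 the highest, while the knockout tissues overlapped. The difference was 0.38 in wild type (SE 0.137, limma adjusted p = 0.0385) and 0.16 in knockout (SE 0.137, limma adjusted p = 0.379). The wild-type call did not hold without bulb replicate 1 (0.23, limma adjusted p = 0.186), nor with the animal as a block (limma adjusted p = 0.0702 by number and 0.0542 by code). Its partner Cnga4 ran only from 5.07 to 5.45 over the 12 arrays, and its tissue differences were 0.046 in wild type (limma adjusted p = 0.671) and -0.19 in knockout (limma adjusted p = 0.0753). Knockout minus wild type in bulb was -0.10 for Cnga2 (95% interval -0.39 to 0.19) and -0.11 for Cnga4 (95% interval -0.28 to 0.059).

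The other 4 transduction genes were lower in olfactory bulb than in hippocampus in wild type, and Adcy3, Gnal and Ano2 also in knockout. Adcy3, which also sits in the primary cilia of many brain neurons, read 7.97, 8.22 and 8.16 in wild-type and 8.19, 8.25 and 8.26 in knockout bulb. In hippocampus it read 8.48, 8.62 and 8.54 in wild type and 8.60, 8.73 and 8.74 in knockout, above every bulb array. The tissue difference was -0.43 in wild type (SE 0.076, limma adjusted p = 0.000297) and -0.46 in knockout (SE 0.076, limma adjusted p = 0.000183). Wild-type bulb replicate 1 was the lowest of all 12 arrays for Adcy3.

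Gnal, which striatal and other brain neurons use as well, read 9.13, 9.01 and 8.68 in wild-type bulb and 8.83, 9.02 and 8.88 in knockout bulb. The hippocampal arrays read 9.47, 9.25 and 9.31 in wild type and 9.33, 9.34 and 9.17 in knockout, and all lay above the bulb arrays. The difference was -0.40 in wild type (SE 0.105, limma adjusted p = 0.00606) and -0.37 in knockout (SE 0.105, limma adjusted p = 0.0117). Ano2 ran from 6.32 to 6.58 in bulb and from 6.62 to 6.86 in hippocampus, with no overlap. Its difference was -0.26 in wild type (SE 0.078, limma adjusted p = 0.0142) and -0.23 in knockout (SE 0.078, limma adjusted p = 0.0302). The knockout call was not kept with the animal as a block by its code (limma adjusted p = 0.0509). Neither call for Ano2 held in every fit that left out an array.

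Gng13 was the only member in which all knockout arrays lay above all wild-type arrays, in both tissues. It read 8.17, 8.06 and 7.96 in wild-type bulb and 8.31, 8.41 and 8.45 in knockout bulb. In hippocampus it read 8.41, 8.30 and 8.27 in wild type and 8.50, 8.48 and 8.43 in knockout. The bulb difference was 0.33 (SE 0.073, 1.25-fold, 95% interval 0.17 to 0.48), with a limma p of 0.000487 and an adjusted p of 0.083 that missed the threshold. With limma's trended and robust moderation the adjusted p was 0.0481. In hippocampus the difference was 0.14 (SE 0.073, limma adjusted p = 0.592), and the difference between the tissues' knockout effects was 0.18 (SE 0.103, limma adjusted p = 0.532). Over all 19938 genes, 17.1% had knockout and wild-type arrays that did not overlap in bulb, in either direction, and 13.1% in hippocampus, against 1 of 10 members in each tissue. Bulb minus hippocampus was -0.26 in wild type (SE 0.073, limma adjusted p = 0.0091) and -0.08 in knockout, which did not pass (limma adjusted p = 0.415).

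Between knockout and wild type, 0 of the 10 members passed limma's test at an adjusted p of 0.05 in bulb, where 0.411% of all genes did. At an unadjusted p under 0.05 there were 2, Stoml3 and Gng13, where 11.3% of all genes were. In hippocampus 0 of 10 passed, against 0.256% of all genes, and 0 had an unadjusted p under 0.05, against 8.91%. The hippocampal differences ran from -0.096 for Ano2 to 0.17 for Stoml3, with a median over the 10 of 0.12 against 0.034 over all genes. In bulb the median over the members was -0.045 and over all genes -0.016. For the difference of the knockout effects between the tissues 0 of 10 passed (0.015% of all genes), and 0 had an unadjusted p under 0.05 (10.7%). The largest such differences were -1.14 for Cyp2g1 (SE 0.671, limma adjusted p = 0.549) and -1.09 for Stoml3 (SE 0.537, limma adjusted p = 0.485).

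**Figure D2:**
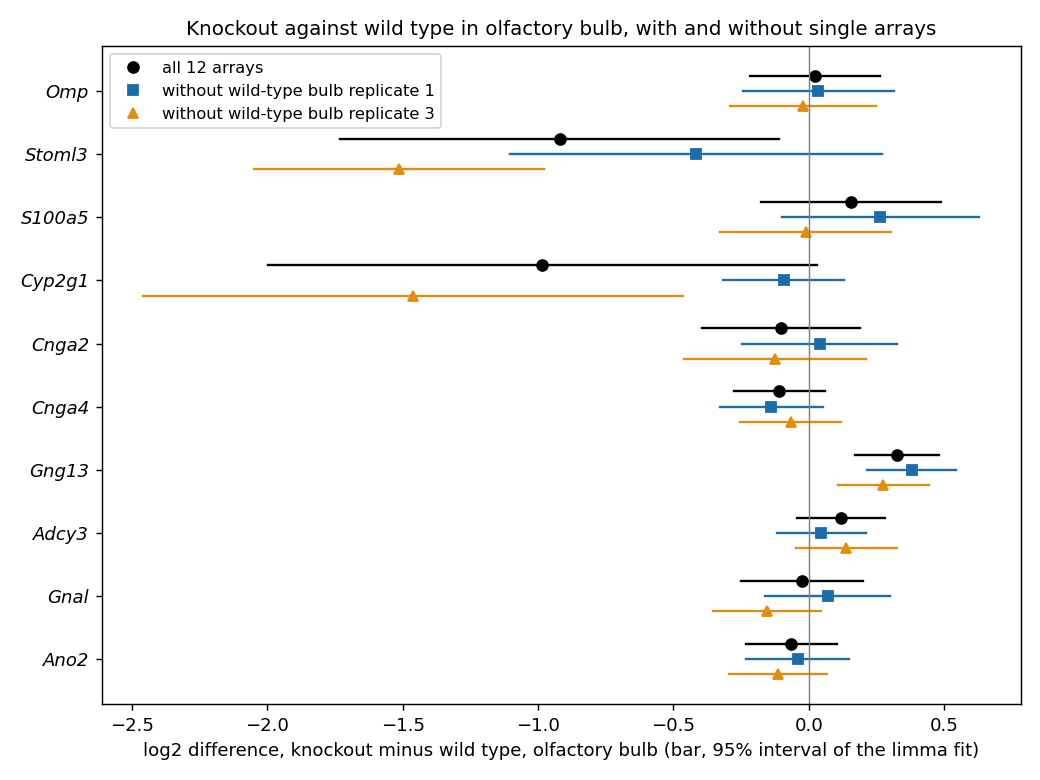
The plot gives the log2 difference between knockout and wild-type olfactory bulb (x axis) for each of the 10 genes (y axis), with the 95% interval of the limma fit, over all 12 arrays (circles), without wild-type bulb replicate 1 (squares) and without wild-type bulb replicate 3 (triangles). Cyp2g1 moves from -0.98 to -0.093 without replicate 1, Stoml3 moves from -0.92 to -0.42 without replicate 1 and to -1.52 without replicate 3, and Gng13 lies at 0.33, 0.38 and 0.28.

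Between the tissues, 8 members passed in wild type: 4 were higher in bulb (Omp, Stoml3, S100a5 and Cnga2), where 23.4% of all genes were, and 4 were lower (Gng13, Adcy3, Gnal and Ano2), where 17.5% were. In knockout 6 passed: 3 were higher (Omp, Stoml3 and S100a5; 19.9% of all genes) and 3 were lower (Adcy3, Gnal and Ano2; 19.2%). The wild-type arrays of the tissues did not overlap for 8 members, against 50.9% of all genes, and the knockout arrays for 6, against 48.9%. Both tissue comparisons draw on different arrays, but they share the model's estimate of the spread. Centring each array on its median moved the all-gene median of the wild-type tissue difference by -0.11, from 0.071 to -0.042. The share of all calls that were higher in bulb went from 57.3% to 37.0% in wild type and from 50.8% to 37.2% in knockout. Relative to that shift, Omp, Stoml3 and S100a5 stayed higher and Gng13 (wild type), Adcy3, Gnal and Ano2 stayed lower past the threshold, and Cnga2 did not pass (0.26, limma adjusted p = 0.129). Cnga4 turned to -0.067 in wild type and passed in knockout (-0.26, limma adjusted p = 0.015).

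The transduction partners outside the 10 genes were also divided between the tissues. Of 13 measured, 5 were higher and 4 lower in wild-type bulb than in hippocampus, against 23.4% and 17.5% of all genes. In knockout 5 were higher and 3 lower, against 19.9% and 19.2%. The chloride importer Slc12a2, which loads sensory neurons with the ion, was higher in bulb by 1.29 in wild type (SE 0.091) and 1.24 in knockout (limma adjusted p = 2.3e-08 and 3.64e-08). The phosphodiesterase Pde2a was lower, with differences of -0.69 and -0.73 (SE 0.060, limma adjusted p = 2.26e-07 and 1.18e-07). The G protein beta subunit Gnb1 was higher by 0.19 and 0.16 (limma adjusted p = 0.0191 and 0.0471). Carbonic anhydrase 2 (Car2) was lower, with differences of -0.21 and -0.27 (limma adjusted p = 0.0351 and 0.00896). None of the 13 passed between knockout and wild type in either tissue, with 2 at an unadjusted p under 0.05 in each. That share over all genes was 11.3% in bulb and 8.91% in hippocampus.

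Of 12 genes of sensory neuron identity and axon guidance, 2 were higher and 6 lower in wild-type bulb than in hippocampus. Over all genes 23.4% were higher and 17.5% lower. In knockout 2 of the 12 were higher and 7 lower, against 19.9% and 19.2% of all genes. The lower ones included the guidance receptor gene Plxna1 (-1.28 in wild type and -1.19 in knockout), the transcription factor Lhx2 (-0.61 and -0.94) and the growth cone protein Gap43 (-0.46 and -0.45). The adhesion molecule Ncam2 did not pass in either genotype, at -0.12 and -0.014 (limma adjusted p = 0.237 and 0.902). These genes are also used by neurons of the hippocampus, as background. Ebf1 and Ebf2, the 2 higher ones, differed by 0.76 and 0.27 in wild type and by 0.69 and 0.25 in knockout. 0 of the 12 passed between the genotypes, with 1 at an unadjusted p under 0.05 in bulb and 3 in hippocampus. That share over all genes was 11.3% in bulb and 8.91% in hippocampus.

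The mucosa list holds other genes of nasal supporting cells, glands and secretions, 22 of which were measured. Their mean was 5.54 in wild-type bulb replicate 1 and ran from 5.26 to 5.32 in the other 5 bulb arrays, and from 5.13 to 5.39 in hippocampus. Of the 22 genes, 12 (54.5%) were highest among the bulb arrays in wild-type replicate 1, where 13.5% of all genes were, and 10 were not. Only 3 of the 22 exceeded every other bulb array by at least 0.5 there, against 0 in each of the other bulb arrays. The smallest lead among the 12 was 0.0074 (Obp2b). Scgb1c1, a secretoglobin of the nasal mucosa, read 7.79 in wild-type replicate 1 and 5.69 and 5.60 in replicates 2 and 3. It read 5.19, 5.40 and 6.25 in knockout bulb, so knockout replicate 6 was second. Without Scgb1c1, left out after its values were seen, the mean of the other 21 genes was 5.43 in wild-type replicate 1 and ran from 5.25 to 5.32 in the other bulb arrays.

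Smaller excesses in the same array, named after their values were seen, were those of Cbr2, Bpifb3 and Cyp2f2. The carbonyl reductase Cbr2 read 6.37 there and 5.59 to 5.83 in the other bulb arrays. The secreted protein gene Bpifb3 read 6.15 there and 5.33 to 5.74 elsewhere in bulb. The P450 gene Cyp2f2 read 6.69 there and 5.71 to 6.16 elsewhere, and its difference between knockout and wild-type bulb was -0.47 (SE 0.139, limma adjusted p = 0.244). Cyp2f2 and Cbr2 were also highest among the hippocampal arrays in wild-type replicate 1. Cyp2f2 read 6.38 in that hippocampal array and 5.88 to 6.06 in the others, and Cbr2 read 5.89 against 5.30 to 5.83. Bpifb3 was not highest in it (5.59, with 5.18 to 5.94 in the others). Epithelial keratins did not stand apart in wild-type bulb replicate 1. Krt8 read 7.15 there and 6.95 to 7.20 in the other bulb arrays, and Krt18 read 6.67 against 6.32 to 6.65. Obp1a, Reg3g and Dmbt1, also named after their values were seen, went the other way and were lowest there among the bulb arrays. They read 4.10 against 4.14 to 4.36, 4.19 against 4.27 to 4.45, and 4.92 against 4.99 to 5.19. None of the 22 genes passed between the genotypes in either tissue, against 0.411% of all genes in bulb and 0.256% in hippocampus. Between the tissues 1 passed in wild type (Krt18, 0.23 higher in bulb, limma adjusted p = 0.0375), where 23.4% of all genes were higher and 17.5% lower. In knockout 1 passed (Krt8, at -0.23, limma adjusted p = 0.0477), where 19.9% of all genes were higher and 19.2% lower.

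**Figure D3:**
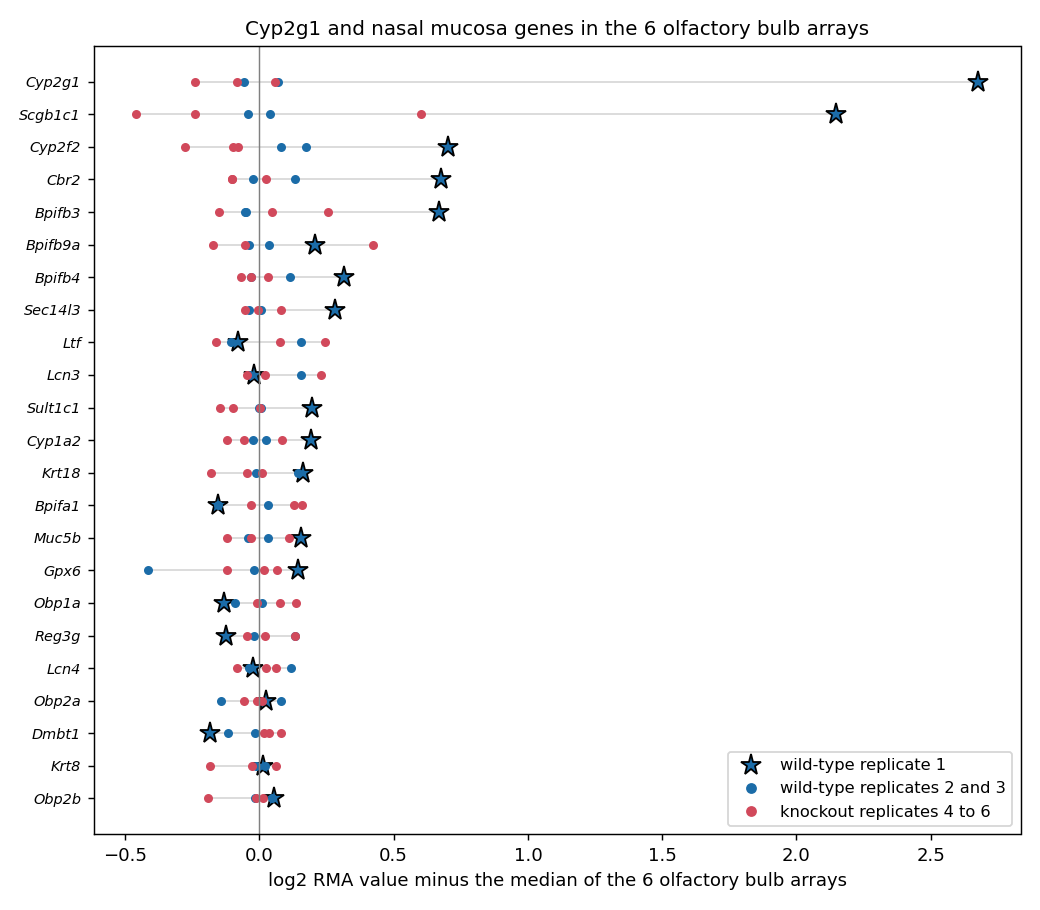
The plot shows Cyp2g1 and the 22 measured mucosa genes (y axis), each as its log2 RMA value minus the median of the 6 olfactory bulb arrays (x axis); stars are wild-type replicate 1, blue points wild-type replicates 2 and 3, and red points the knockout arrays. The star lies beyond 2 on the axis for Cyp2g1 and Scgb1c1, and it is the highest point for 12 of the 22 mucosa genes.

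Across all 19938 genes, only Cyp2g1 and Scgb1c1 exceeded every other bulb array by at least 1 log2 unit in wild-type replicate 1, and 13 genes did so by at least 0.5. Other arrays had such genes as well: 9 and 11 at the smaller margin in wild-type bulb replicates 2 and 3, and 0, 4 and 3 in knockout bulb replicates 4 to 6. At 1 log2 unit there was 1 each in wild-type bulb replicate 3 (Bub1b, 7.22 against 5.49 to 6.15) and in knockout bulb replicate 6. The latter was Bpifb9b, of the same family as Bpifb3, at 5.44 against 3.97 to 4.39 in the other bulb arrays; both were named after their values were seen. In hippocampus wild-type replicate 1 had 44 at the margin of 0.5 and 3 at 1 log2 unit. These 3 were Kcnj13 (8.27, with 6.19 to 7.16 in the other hippocampal arrays), Slc6a13 (9.09, with 7.46 to 8.07) and Scgb1c1 (6.69, with 5.19 to 5.69). Kcnj13 is on the choroid plexus list, and Cyp2g1 read 5.38 in that array. By their titles the bulb and hippocampal arrays of replicate 1 come from the same animal, and by their codes from different animals.

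Markers of other tissues and cell types varied as follows. Of 7 genes of meninges and fibroblasts, 5 were highest in wild-type bulb replicate 1 and the other 2 in replicate 2. Those shares of all genes were 13.5% and 24.4%. The mean of the 7 genes was 8.83, 8.73 and 8.40 in wild-type bulb and 8.54, 8.45 and 8.53 in knockout bulb. In hippocampus this mean was 8.95 in wild-type replicate 1, 8.16 and 8.53 in replicates 2 and 3, and 8.34 to 8.36 in knockout. Of 5 genes of the choroid plexus, 4 were highest in wild-type bulb replicate 1, where 13.5% of all genes were. These 4 led the next bulb array by only 0.0019 (Ttr) to 0.14 (Kcnj13). In hippocampus the choroid plexus mean was 7.99 in wild-type replicate 1, 6.88 and 7.16 in replicates 2 and 3, and 7.26 to 7.66 in knockout. Of 7 genes of the olfactory ensheathing glia, which wrap the sensory axons, 4 were highest in wild-type bulb replicate 1, against 13.5% of all genes. These 4 led the next bulb array by 0.0029 (Foxd3) to 0.23 (Npy). The list mean was 9.27 in that array against 9.05 to 9.20 in the other 5 bulb arrays. All 7 genes of this list were higher in bulb than in hippocampus in both genotypes, against 23.4% of all genes in wild type and 19.9% in knockout. Some, such as Npy and Fabp7, are also made by other bulb cells. Of 6 genes of epithelial basal cells 1 was highest in wild-type bulb replicate 1, and of 6 genes of bone and cartilage 0 were. The same count was 0 of 5 for ependyma and motile cilia, 0 of 5 for microglia and 0 of 1 for blood. The part of these tissues in the values of Cyp2g1 and Stoml3 was not tested.

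**Figure D4:**
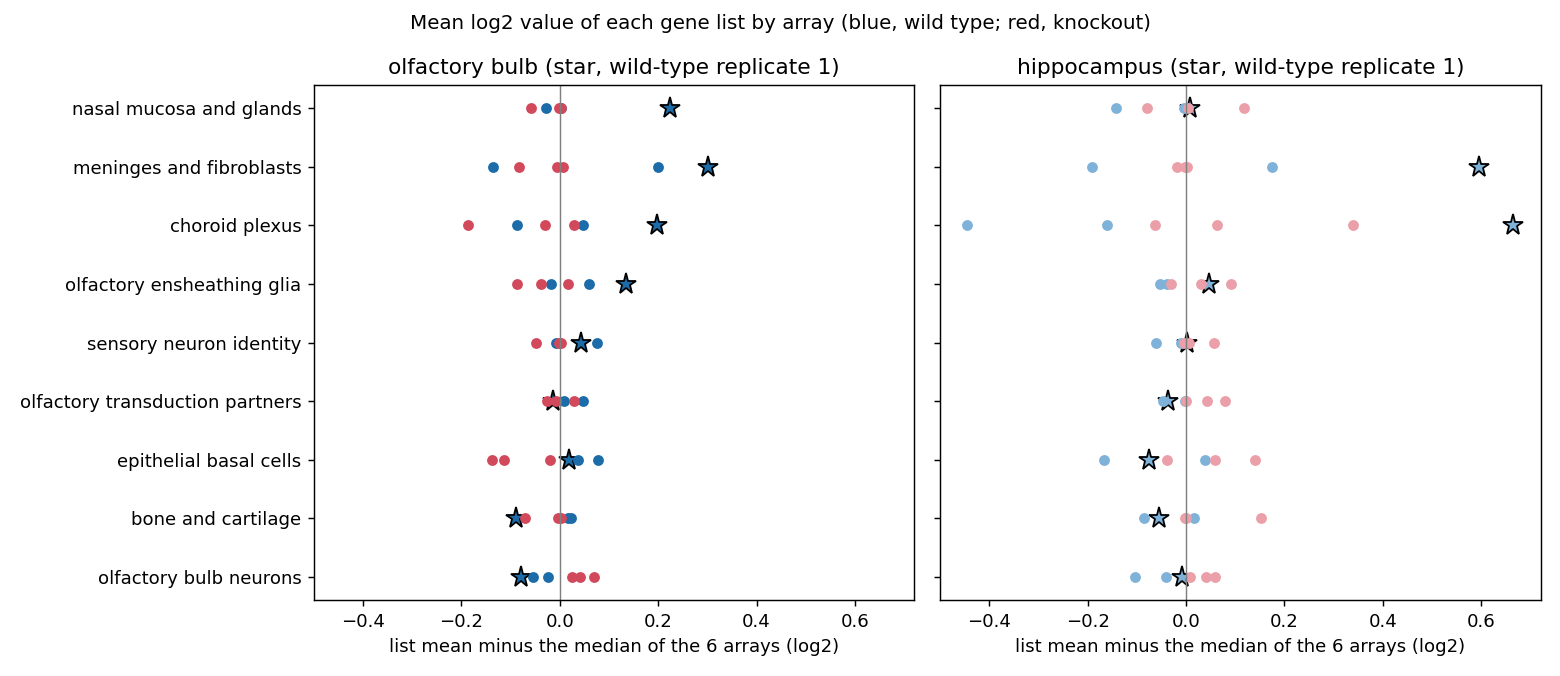
The plots give the mean log2 value of each gene list in each array minus the median of the 6 arrays of the tissue (x axis), for 9 lists (y axis), in olfactory bulb (left) and hippocampus (right); blue is wild type, red is knockout and stars are wild-type replicate 1. In bulb the star is highest for the mucosa (5.54), meninges (8.83), choroid plexus (7.20) and ensheathing glia (9.27) lists and is the lowest point for the bulb neuron and bone lists.

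The odorant receptors themselves, 1027 genes by name, were not raised as a family in wild-type bulb replicate 1. Their median over genes was 4.67, 4.72 and 4.80 in wild-type bulb replicates 1 to 3, 4.63, 4.65 and 4.67 in knockout bulb, and 4.51 to 4.70 in hippocampus. Of these genes 8.67% were highest in wild-type replicate 1 and 38.7% in wild-type replicate 3, where the shares of all genes were 13.5% and 20.7%. Many receptor genes are close copies of each other, so single receptors are uncertain. These medians lie below the array medians, where RMA compresses differences, and whether the receptors were above background was not tested. In bulb 0 of 1027 passed between the genotypes (0.411% of all genes), with 104 (10.1%) at an unadjusted p under 0.05 against 11.3% of all genes, and in hippocampus 1 did (0.256% of all genes). Between the tissues 87 (8.47%) were higher and 14 (1.36%) lower in wild-type bulb, against 23.4% and 17.5% of all genes. In knockout 68 (6.62%) were higher and 12 (1.17%) lower, against 19.9% and 19.2%.

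By the root mean square difference of profiles, each gene centred on its own mean, the genes most like Omp over the 12 arrays were Prokr2 (0.121), Lhfp (0.124), Pitpnm3 (0.130), Hcn4 (0.132), Sall1 (0.139), Tacr1 (0.140), Sh3bgrl2 (0.140) and Reln (0.144). The next comparison was confined to the 6 bulb arrays and the 76 genes with a range of at least 1 there. In it, Scgb1c1 (0.341) and Stoml3 (0.529) were the nearest to Cyp2g1, followed by Scd3 (0.655), Uprt (0.687), Sfrp1 (0.693), Osr1 (0.707) and Pcsk1n (0.727). The nearest to Stoml3 were Uprt (0.310), Pcsk1n (0.327), Ly96 (0.370), Nsun3 (0.392), Sfrp1 (0.400), Osr1 (0.401) and Dapp1 (0.432). In hippocampus, which this comparison did not use, all genes named as nearest to Stoml3 were highest in wild-type replicate 1, as Stoml3 was (6.47). Scd3, named for Cyp2g1, was not: it read 6.86 there and 6.60 to 6.95 in the other hippocampal arrays. Ly96 read 6.03 there and 4.72 to 5.07 in the other hippocampal arrays, while Dapp1 read 6.88 there and 6.65 to 6.85 in the others. Why the genes named for Stoml3 were high in that array as well was not tested. Each of these lists of 8 nearest genes for Cyp2g1 and Stoml3 held 1 more gene, with a small RNA or predicted-gene name, that is not named. These distances describe the same arrays that the values above come from.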

How the data were processed

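Per the labels' protocols, total RNA was extracted with Trizol, fragmented and labelled with biotin, and each sample was hybridised to its own 1-colour array. The values the authors deposited are on the log2 scale, 1 for each probe set in each sample, made with RMA and the oligo package per the submitters' processing notes. RMA corrects background, normalizes between arrays and summarises probes, and it compresses differences near background. The sources used here give no versions, genome build or detection calls for the arrays, and the coordinates printed are those of RefSeq's promoter windows, not of probe sets. Of 35556 probe sets, 21789 have 1 symbol in the platform annotation, 1621 several, and 12146 are unlisted and unnamed here. Entrez identifiers matched 21698 to RefSeq's gene table, with 0 symbols changed. The probe set with the highest mean stood for a gene (999 genes had several), with no filter on low signal.

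Groups were compared with limma 3.58.1 (R 4.3.3; lmFit and eBayes, 4 group means over 12 arrays, Benjamini-Hochberg over 19938 genes, threshold 0.05), a procedure tested on simulated data. SD is over arrays of a group and SE is limma's. Replicate arrays of a group differed with an SD of 0.149 to 0.223, so none was a copy. The titles name the same animals in both tissues, and the codes do too but with other wild-type pairs; deviations of same-animal arrays correlated at -0.21 to 0.25 by number and -0.26 to 0.12 by code. The members and lists (117 of 128 list genes measured) were chosen with earlier results of these data known. Besides the members, the text names from each list any gene called between genotypes, or examples with the highest bulb mean, and the 8 nearest profiles. A few more genes are named for where their values stood. Alternatives were array weights, trended and robust moderation, median-centring, a low-signal filter, other handling of probe sets, each tissue alone, an animal block and leaving out each array.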

Additional observations from a re-analysis of the deposited data

Results flagged for a closer look

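For each of 48 values (the members and the list means, in each tissue) the highest and the lowest of the 6 arrays was checked by Dixon's ratio of its gap to the range, against the 95% critical value. Chance passes about 1 in 20 groups, and the 6 arrays of a tissue hold both genotypes. The ratio was passed 3 times, each time by wild-type bulb replicate 1. Cyp2g1 was high there, at 8.287 on the log2 scale (ratio 0.895). Adcy3 was low there, at 7.972 (ratio 0.637). The mean of the 22 mucosa genes was high there, at 5.542 (ratio 0.784). Stoml3, at 10.07 in the same array, did not pass, since wild-type replicate 2 lay between it and the others. The part that adjoining tissue had in these values was not tested.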

How the results depend on the processing

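The number of arrays, 3 per group, and the compression of RMA near background limit what can be resolved. Over the alternatives, the members called between the genotypes numbered 0 to 1 in bulb when single arrays were left out (1 without wild-type replicate 3, Stoml3) and 1 with trended and robust moderation (Gng13). They numbered 0 in hippocampus and 0 for the difference between the tissues, in every alternative run. Between the tissues 7 to 9 were called in wild type and 5 to 7 in knockout. With the replicate block, 7 were called in wild type by animal number and 8 by code, 6 and 5 in knockout, and 0 for the difference between the tissues. Cyp2g1, Cnga2 and Cnga4 have no value under the low-signal filter, which removes them. Cnga4 passed between the knockout tissues under 3 alternatives (array weights, median-centring and without knockout hippocampal replicate 5).

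Directions reversed as follows, all for differences below the threshold. With median-centring the knockout effect in hippocampus became -0.0187 for Omp and -0.00152 for S100a5, the difference between tissues' effects became 0.0193 for Adcy3, and the wild-type tissue difference became -0.0667 for Cnga4. With array weights the difference between tissues' effects became -0.00958 for Omp and 0.0338 for Adcy3. Leaving out single arrays gave knockout effects in bulb from -0.100 to 0.0954 for Omp, -0.0117 to 0.276 for S100a5, -0.219 to 0.0403 for Cnga2, -0.156 to 0.0700 for Gnal and -0.115 to 0.00565 for Ano2. In hippocampus they ran from -0.0590 to 0.112 for Omp, -0.00238 to 0.473 for Stoml3, -0.0613 to 0.144 for S100a5, -0.0100 to 0.185 for Cnga2 and -0.111 to 0.000126 for Gnal. The difference between tissues' effects ran from -0.117 to 0.0821 for Omp, -0.0453 to 0.242 for S100a5, -0.0958 to 0.0275 for Adcy3, -0.0909 to 0.135 for Gnal and -0.0189 to 0.102 for Ano2. The knockout tissue difference of Cyp2g1 ran from -0.147 to 0.00211. The cause was not tested.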
